A study of Mus musculus with 3 samples.

Results

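The genes of the platelet receptor for von Willebrand factor and of its ligand were described in mouse platelets: Gp1ba, Gp1bb, Gp9 and Gp5, which encode the chains of the glycoprotein Ib-IX-V complex (GPIb alpha, GPIb beta, GPIX and GPV), and Vwf, which encodes von Willebrand factor. They were chosen by function and taken by Entrez number from count tables of 9822 genes, where all 5 were found. The tables came from 3 RNA-seq libraries of 1 group, replicates 1 to 3: platelets purified from blood of male BALB/c mice, 20 weeks old, all wild type for Nxf1 (an mRNA export factor gene), with no treatment named. The labels give each library a batch number of its own and the design text speaks of independent samples but not of 1 mouse each, so animal and batch cannot be told apart, and each error given measures how far these 3 libraries differed, whether for biological or technical reasons. The library totals were 26974129, 25189231 and 26111636 counts. All 10 platelet and megakaryocyte markers on a list (Pf4, Ppbp, Itga2b, Itgb3, P2ry12, Gp6, Clec1b, Tubb1 and Treml1 among them) were detected, at a median of 2212 CPM, a gene's counts in every 1000000 of its library. Of all genes 77.7% were detected, and the median over all genes was 3.87 CPM.

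Platelets are shed by megakaryocytes without a nucleus and take their messenger RNA from them. At high shear, von Willebrand factor bound to exposed collagen is caught by the outer domain of GPIb alpha, which slows the platelet on the vessel wall; GPIb alpha is held by disulfide bonds to GPIb beta, with GPIX and, more loosely, GPV beside them, and all of these chains carry leucine-rich repeats. Loss of GPIb alpha, GPIb beta or GPIX causes Bernard-Soulier syndrome, a bleeding disorder with giant platelets. Loss of GPV does not. Von Willebrand factor is made by megakaryocytes, which pack it into alpha granules, and by endothelial cells, and its deficiency is von Willebrand disease.

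The genes lie on 3 chromosomes of GRCm38, the assembly of mm10. Per the RefSeq gene table, Gp1ba (Entrez gene 14723) spans positions 70639102 to 70643986 of chromosome 11. Gp1bb (14724) spans 18620319 to 18622403 and Gp5 (14729) 30307685 to 30310781 of chromosome 16, and Gp9 (54368) spans 87776131 to 87779786 and Vwf (22371) 125552948 to 125686679 of chromosome 6. The receptor chains are short genes: the longest coding transcript in GENCODE M21 has 2 exons for Gp1ba, Gp5 and Gp9 and 1 for Gp1bb, against 52 for Vwf. Their coding sequences run to 2202 bases for Gp1ba, 1701 for Gp5, 642 for Gp1bb and 531 for Gp9, and that of Vwf to 8439.

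The 250 bases before the RefSeq start sites of the 4 receptor chains are shown because the RNAs of this 1 complex were all abundant here. RefSeq promoters (GRCm38.p6) matched 4 of the 5 members. Capitals mark GATAA, a core of sites for GATA factors, and GGAAG, a core of sites for Ets factors, each read on both strands, so that TTATC and CTTCC are capitals too.
Gp1ba (chr11:70638872-70639121, plus strand): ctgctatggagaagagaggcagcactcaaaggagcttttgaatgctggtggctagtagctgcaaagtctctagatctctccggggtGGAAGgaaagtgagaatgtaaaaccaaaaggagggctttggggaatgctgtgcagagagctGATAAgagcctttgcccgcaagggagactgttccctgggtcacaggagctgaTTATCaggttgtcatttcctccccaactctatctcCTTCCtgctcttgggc
Gp1bb (chr16:18622404-18622653, minus strand): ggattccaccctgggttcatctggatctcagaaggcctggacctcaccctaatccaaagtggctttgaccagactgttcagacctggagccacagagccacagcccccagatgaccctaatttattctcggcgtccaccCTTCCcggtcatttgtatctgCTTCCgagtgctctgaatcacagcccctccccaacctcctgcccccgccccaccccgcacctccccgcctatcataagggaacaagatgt
Gp9 (chr6:87777820-87778069, plus strand): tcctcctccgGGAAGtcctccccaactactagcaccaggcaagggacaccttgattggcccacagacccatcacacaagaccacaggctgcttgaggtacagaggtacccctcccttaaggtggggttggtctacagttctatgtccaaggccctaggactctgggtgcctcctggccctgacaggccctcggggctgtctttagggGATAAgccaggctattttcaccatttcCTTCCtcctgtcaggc
Gp5 (chr16:30310782-30311031, minus strand): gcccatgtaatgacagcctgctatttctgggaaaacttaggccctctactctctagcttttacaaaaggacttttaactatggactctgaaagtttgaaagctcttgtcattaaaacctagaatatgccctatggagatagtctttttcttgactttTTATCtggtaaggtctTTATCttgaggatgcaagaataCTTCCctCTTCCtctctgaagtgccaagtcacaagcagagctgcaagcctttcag

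GATAA was found in the windows of Gp1ba, Gp5 and Gp9 and not in that of Gp1bb, and no match overlapped one of GGAAG. Counted from the start site, the matches began at -103 and -51 in Gp1ba, at -93 and -77 in Gp5 and at -43 in Gp9. GATAA occurs in 22.6% of all 32851 RefSeq windows of this length and in 14.8% of the 9753 windows of genes in the tables. GGAAG was in all 4 windows, at 2 places in each, and in 64.1% of all windows and 68.9% of those of genes in the tables. TGTGGT, a core of Runx sites, was matched in Gp9 (14.1% of all windows, 10.6% of those of genes in the tables). TATAAA, the TATA box, was matched in none of the 4 (12.4% of all windows, 6.45% of those of genes in the tables). The Gp1bb window lies before the start of its longer, unspliced transcript and inside the neighbouring gene Septin5, and the Gp9 window lies inside the RefSeq span of Gp9, which begins further upstream. The last bases of the Gp1ba window, with the GGAAG match at -16, also lie inside the RefSeq span of that gene, which begins before the start site used. These are matches of letters, not shown to be bound.

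Vwf, the ligand, gave 2086, 2158 and 2648 CPM in replicates 1, 2 and 3, a mean of 2297 ± 306 (SD, n = 3) from 56276, 54352 and 69136 counts, rank 55 among the 9822 genes. Replicate 3 was high and the other two were close. Gp1ba, the chain that binds von Willebrand factor, gave 589, 560.4 and 689 CPM, a mean of 613 ± 67.8 and rank 202, again highest in replicate 3. Gp1bb, its disulfide-linked partner, gave 769, 800.1 and 911 CPM (827 ± 74.6, rank 151). Gp9, the small chain needed for the complex to reach the surface, gave 2152, 2203 and 2257 CPM (2204 ± 52.4, rank 60). Gp5, the chain that thrombin cleaves from the platelet, gave 852, 772 and 1033 CPM (886 ± 134, rank 141). On these plain totals Gp9 had the lowest coefficient of variation, 2.38%, and Gp5 the highest, 15.1%. That order did not hold under other scalings: with TMM scaling (edgeR's trimmed mean of M-values) Gp1bb was lowest at 1.71%, with Gp9 at 6.43% and Gp5 at 7.41%, and with DESeq2 size factors Gp1ba was lowest at 2.23% and Gp9 highest at 8.35%.

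All 5 genes were detected, that is at 1 CPM or more in every library, as were 77.7% of all genes in the tables, and all 5 were above 100 CPM on average, against 7.95% of genes. The 4 receptor chains together took 0.436%, 0.434% and 0.489% of counts, and with Vwf the 5 genes took 0.683% ± 0.0616 (SD, n = 3). By reads Vwf and Gp9 could not be ordered: Gp9 was slightly higher in replicates 1 and 2 and Vwf in replicate 3. The exact Clopper-Pearson 95% interval of a level in 1 library reached only 0.745% to 1.65% of the value to each side, since each rested on at least 14115 counts. Such intervals cover counting error only, and the spread between libraries was wider than this for every member. These levels are shares of all counts in bulk samples. A smaller share of platelets among the cells and less of a gene's RNA per platelet therefore cannot be told apart.

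**Figure D1:**
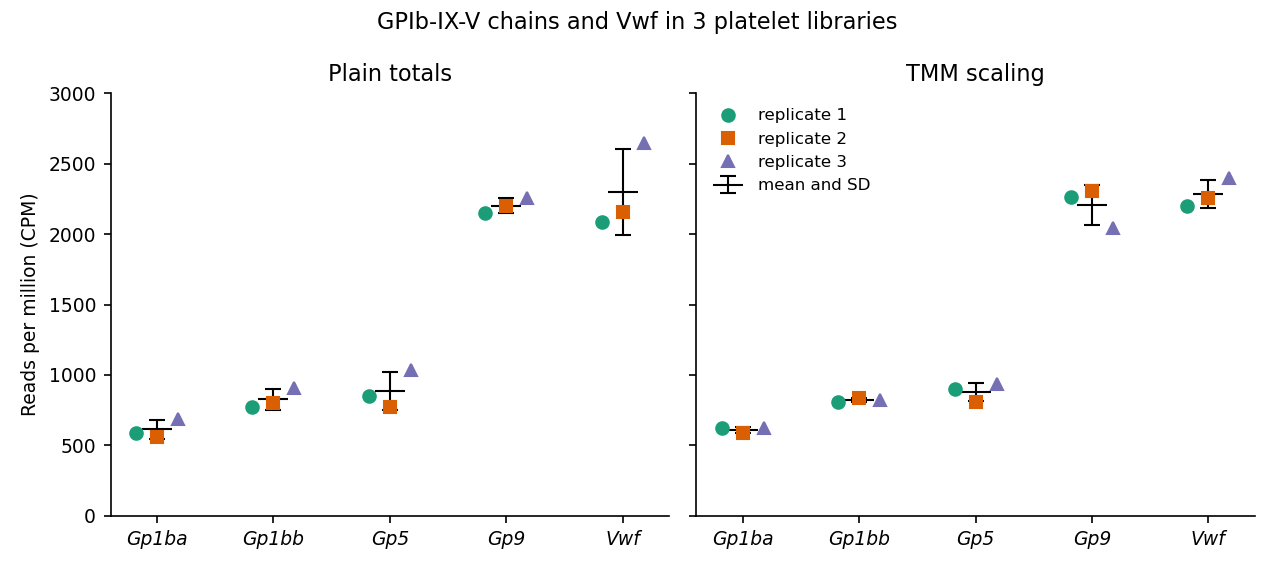
Levels of the 4 receptor chain genes and Vwf in CPM, 1 point per library, with the mean and SD of 3 libraries; the left panel uses plain totals and the right panel TMM scaling. On plain totals replicate 3 is the highest for each gene, and with TMM scaling it is the lowest for Gp9, at 2045 CPM.

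A longer RNA gives more reads, so levels of different genes were compared as CPM per 1000 bases of the deposited gene length (RPKM). On this scale Gp9, whose deposited length is 811 bases, stood far above the rest, at 2653, 2717 and 2783 RPKM (2717 ± 64.7, SD, n = 3) and rank 33 of all genes. Gp5 (2189 bases) followed at 405 ± 61.1 RPKM and Gp1bb (2085 bases) at 396 ± 35.8 RPKM. Vwf, whose 8817 bases make it the longest of the 5, came to 261 ± 34.7 RPKM and Gp1ba (2732 bases) was lowest, at 224 ± 24.8 RPKM. The chain that binds the ligand was thus the least abundant RNA of the complex on this scale. Of the summed RPKM of the 4 chains, Gp9 held 72.7% ± 1.90, Gp5 10.8% ± 1.16, Gp1bb 10.6% ± 0.461 and Gp1ba 5.98% ± 0.398.

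The steps in this order were compared as log2 ratios of RPKM within each library, which do not depend on library scaling. Gp9 exceeded Gp5 by 2.77, 2.95 and 2.56 (mean 2.76 ± 0.19, SD, n = 3), a ratio of 6.76. Gp5 and Gp1bb could not be told apart, at 0.08, -0.12 and 0.11 (0.02 ± 0.13), and their order changed between libraries. Gp1bb exceeded Vwf by 0.61 ± 0.06, a ratio of 1.53. Vwf exceeded Gp1ba by 0.13, 0.25 and 0.25 (0.21 ± 0.07), a ratio of 1.16 that kept its direction in all 3 libraries. Against Gp1ba, Gp9 was 12.2 times as high (3.60 ± 0.13), Gp5 higher by 0.85 ± 0.06 and Gp1bb 1.77 times (0.82 ± 0.07). With 3 libraries the smallest p that exact sign flips allow is 0.25 (two-sided), so none is printed.

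**Figure D2:**
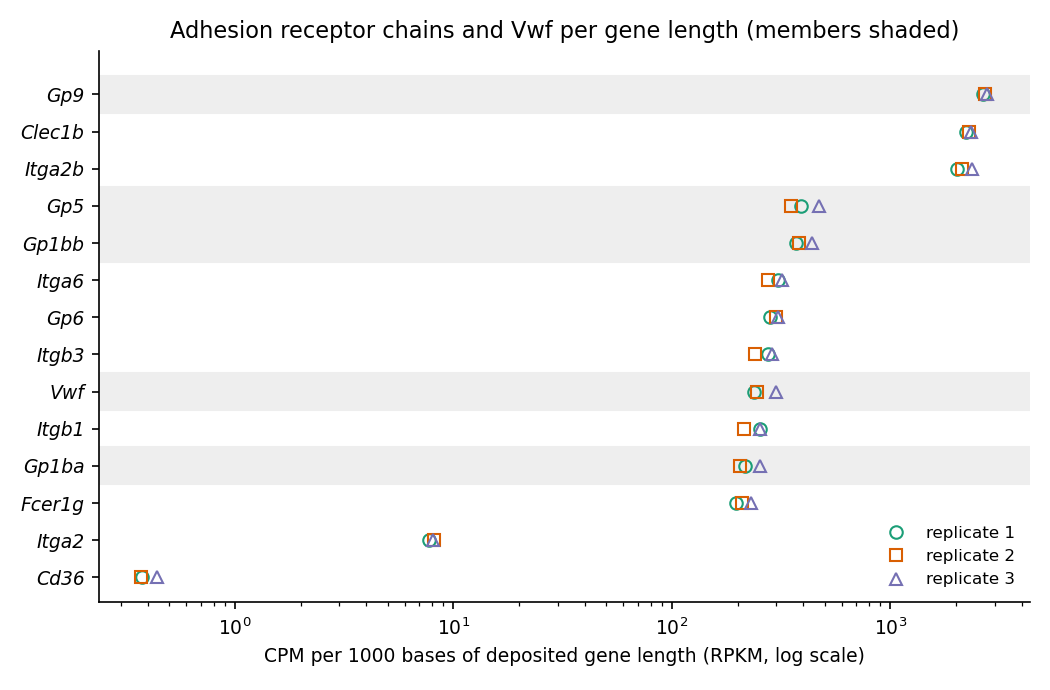
CPM per 1000 bases of deposited gene length (RPKM, log axis) for the 4 receptor chains and Vwf (shaded) and 9 other adhesion receptor chains, 1 point per library, sorted by mean. Gp9 sits at the top near Clec1b and Itga2b, and the other shaded genes lie between 205 and 472 RPKM.

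Part of this order rests on which length is right for Gp1bb. GENCODE lists 2 coding transcripts of this gene: an unspliced one of 2085 bases, equal to the deposited length, and a spliced one of 1086 bases with 2 exons. The tables do not show which of them the reads came from. With the spliced length Gp1bb came to 761 ± 68.7 RPKM and exceeded Gp5, at a log2 ratio of Gp5 to Gp1bb of -0.92, and was 3.40 times Gp1ba. Over the coding sequence alone it was 4.63 times Gp1ba, and there Vwf and Gp1ba were no longer ordered (log2 ratio -0.035 ± 0.07). Gp9 was highest per length under all 5 lengths tried, and over coding sequences it was 3.23 times Gp1bb and 15.3 times Vwf.

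**Figure D3:**
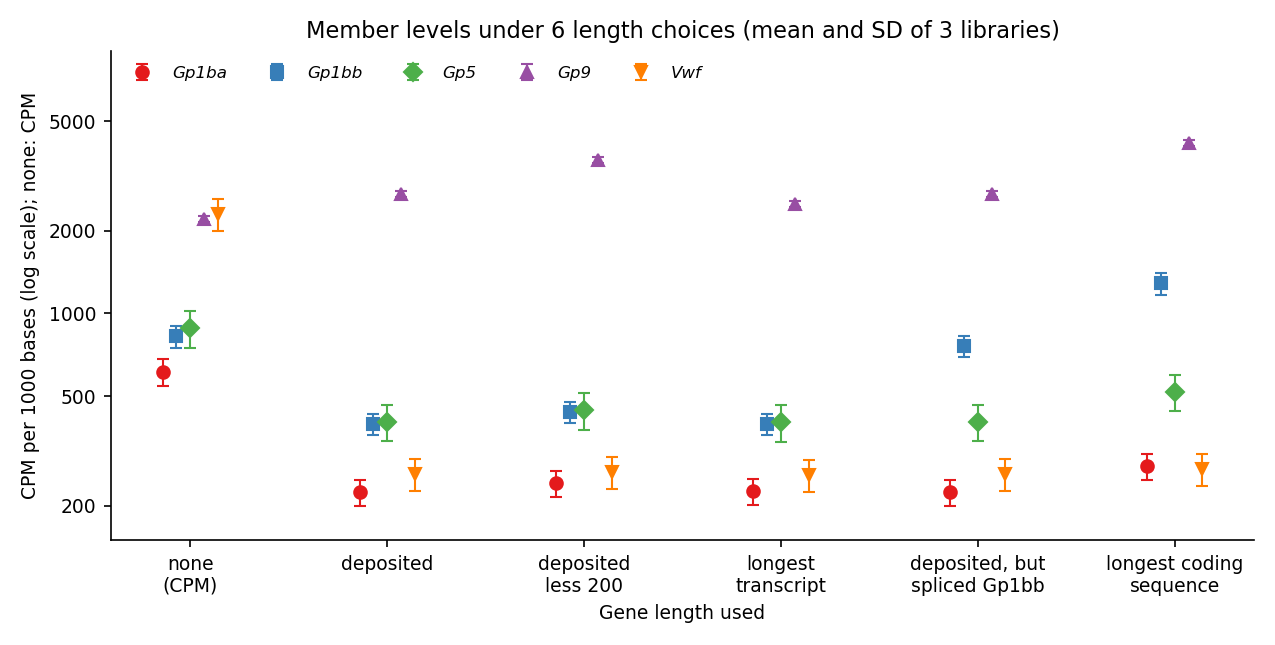
Mean and SD over 3 libraries of the 5 genes with 6 choices of gene length, as CPM per 1000 bases on a log axis (the leftmost group is CPM with no length). Gp9 is highest wherever a length is used, and Gp1bb moves from 396 with the deposited length to 761 with its spliced transcript.

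Reads of Gp1bb also have a neighbour to be told from. Its RefSeq span shares 593 bases with Septin5, which lies on the same strand, so that a strand setting could not separate them, and 1 GENCODE transcript of Septin5 (there Sept5) runs on into Gp1bb and shares 1902 exon bases with it. Septin5, a septin GTPase gene, was at 2.41, 2.70 and 2.57 CPM, from 65, 68 and 67 counts, so that Gp1bb gave 323 times its reads. How reads that fell on both genes were counted is not given in the sources used here, and the level of Gp1bb is uncertain to that extent. No other member overlaps a RefSeq gene. The nearest genes gave few reads against the members, though not all were low against the median over all genes, 3.87 CPM. Slc25a11, 32 bases after the RefSeq end of Gp1ba, was at 6.81 ± 2.03 CPM, and Atp13a3 and Lrrc15, beside Gp5, at 5.02 and 0.949 CPM. Gm5879 and Rab43, beside Gp9, were at 5.72 and 33.2 CPM, and Ano2, after Vwf, at 0.806 CPM. Gm12315 beside Gp1ba, 4930588K23Rik and Rps2-ps7 beside Gp1bb, and Gm33144 beside Vwf were not analysed here.

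Between libraries, none of the 5 genes was called more variable than genes of like abundance. In edgeR's quasi-likelihood fit with TMM scaling, 22 of 8289 genes, 0.265%, had a spread above the trend (Benjamini-Hochberg adjusted p under 0.05), led by Alas2, the first enzyme of heme synthesis in red cells, and 0 of the 5 members were among them. The members' adjusted p ran from 0.991 for Gp5 to 1.00 for Gp1bb, 0 of 5 had an unadjusted p under 0.05, and DESeq2 marked 0 of 5 as dispersion outliers. Their spread statistics lay at percentiles 10.5 (Gp1ba), 2.67 (Gp1bb), 38.6 (Gp5), 27.1 (Gp9) and 13.9 (Vwf) of the genes tested. On plain totals these became 90.6, 81.9, 97.3, 13.8 and 94.95, with adjusted p of 0.9645 or above. The test is coarse: on simulated counts for 8289 genes it found 0 of 50 genes changed 2-fold in 1 library and 36 of 50 changed 4-fold. Each simulated gene had exactly the dispersion of the trend, so these rates need not hold for the real counts.

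**Figure D4:**
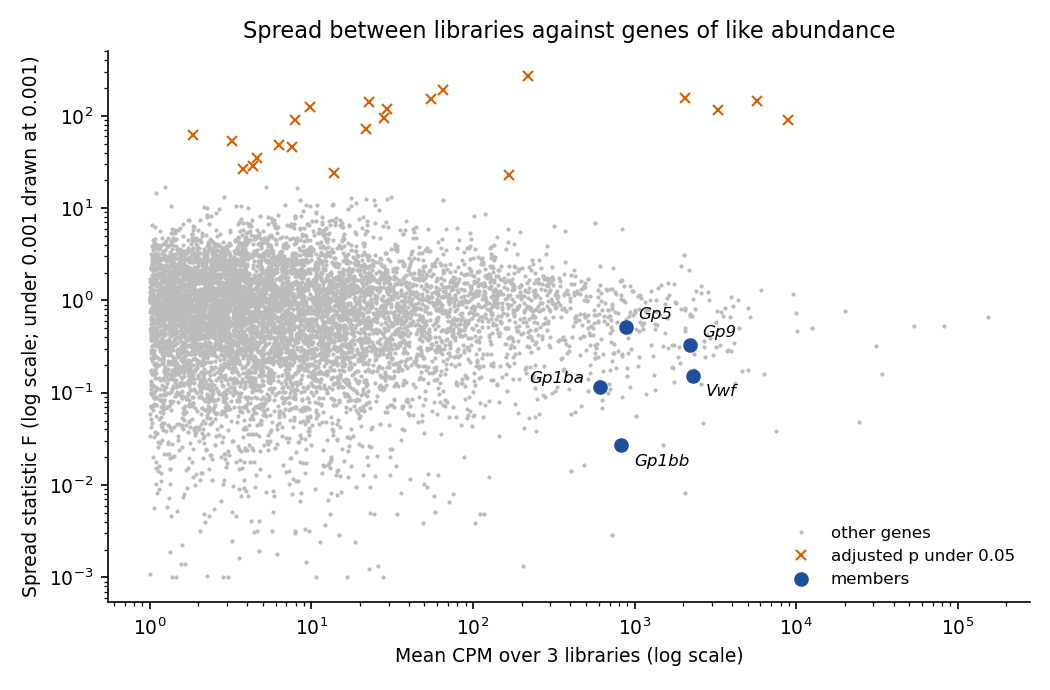
Each point is 1 of 8289 genes, with its mean CPM over 3 libraries and the statistic F of edgeR's test of spread, both on log axes; crosses are the 22 genes with an adjusted p under 0.05. The 5 members lie between 0.0271 (Gp1bb) and 0.511 (Gp5), below the crosses.

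The high values in replicate 3 depended on the scaling. On plain totals 5 of 5 members were highest in replicate 3, where 68.7% of all genes were also highest. The median gene lay 0.18 (log2) above its own mean there on plain totals, 0.04 with TMM scaling and 0.00 with DESeq2 size factors. The last value is fixed by construction, since those factors set this median equal in all libraries. With TMM scaling, 3 of 5 members (Gp1ba, Gp5 and Vwf) were highest in replicate 3, against 43.4% of genes, and with DESeq2 size factors 2 of 5 (Gp5 and Vwf), against 39.1%. The summed level of leukocyte markers other than Lyz2 was also highest in that library, at 171, 164 and 264 CPM (180.3, 172 and 239 with TMM scaling). With Lyz2 kept, the sum was 1457, 1679 and 1625 CPM, highest in replicate 2. With TMM scaling it was 1535, 1759 and 1473 CPM, lowest in replicate 3. The part of leukocyte RNA in the members' values was not tested. The level of Gp1bb over libraries was nearly flat, at 810.0, 838 and 825 CPM under TMM. Gp9 was lowest in replicate 3, at 2267, 2308 and 2045 CPM under TMM.

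The ratios show the same without any scaling: in replicate 3 Gp9 was at its lowest against each of the other 4 members. Its log2 ratio to Vwf, for example, was 3.49, 3.47 and 3.21, and that to Gp1bb 2.85, 2.82 and 2.67. The SD of the log2 ratios was 0.10 to 0.19 for those of Gp9 and 0.06 to 0.13 among the other 4 members, the smallest being Gp1bb to Vwf and Gp5 to Gp1ba. Gene length moved with this difference. Among genes of 100 CPM or more under TMM scaling, the median log2 difference of replicate 3 from the mean of replicates 1 and 2 was -0.25 for the 108 genes of at most 1000 bases, and -0.20, -0.17 and -0.14 for the next classes, up to 2000, up to 4000 and over 4000 bases. Gp9 was at -0.16, about the upper quartile of its class, and, of the longer members, Gp1ba at 0.05, Gp1bb at 0.00, Gp5 at 0.14 and Vwf at 0.11, each of these 4 above the upper quartile of its own length class (-0.10 for the class of Gp1ba, Gp1bb and Gp5, and -0.06 for that of Vwf). The part of gene length in these differences was not tested, and the split by length was chosen after the values were seen.

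Among other adhesion receptor chains, Gp9 was nearest in level to Clec1b, the receptor for podoplanin, and Itga2b, the fibrinogen receptor's alpha chain. Per length it exceeded Clec1b by 0.26, 0.25 and 0.25 on the log2 scale (0.25 ± 0.01, SD, n = 3) and Itga2b by 0.33 ± 0.08. Gp9 and Clec1b thus kept almost 1 ratio through the libraries. This was the smallest SD among the ratios of all members to all these chains, over only 3 libraries. Gp1bb to Itga2b and Gp9 to Itga2 were also steady, each with an SD of 0.02. The other members were near the remaining chains. Gp1ba lay within 1 SD of Fcer1g (log2 ratio 0.08 ± 0.10) and of Itgb1 (-0.10 ± 0.11, below it in all 3 libraries), and Vwf within 1 SD of Itgb3 (-0.04 ± 0.15) and Itgb1 (0.12 ± 0.18). Gp6, the collagen receptor that signals through Fcer1g, at 296 RPKM lay above Gp1ba (log2 ratio of Gp1ba to Gp6 -0.41 ± 0.13) and below Gp1bb (0.42 ± 0.08) and Gp5 (0.44 ± 0.19). Gp5 and Gp1bb also exceeded Itga6, the alpha chain of a laminin receptor, by 0.42 ± 0.12 and 0.40 ± 0.11. Itga2, the alpha chain of the other collagen receptor, was far lower, so that Gp1ba was 28.0 times as high, and Cd36, a scavenger receptor, was at 0.397 RPKM. Itga5 was not analysed here.

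The genes whose RPKM in the 3 libraries was most like that of each member, by the largest log2 difference in any library, shared a level and a pattern over only 3 libraries. For Gp1ba they were Samd14 (0.07) and Cd151 (0.09), the latter a tetraspanin, and for Gp1bb Entrez gene 100504674, which had no symbol, (0.05) and the adhesion molecule gene Pecam1 (0.11). For Gp5 they were Actb, beta actin, (0.12) and the kinase gene Map2k3 (0.12), for Gp9 Dap (0.06) and Gm8894 (0.15), and for Vwf the ribosomal protein gene copy Rps27rt (0.11) and Stradb (0.13). Levels of genes with near-identical copies, such as Rps27rt, Gm8894 and Actb, are uncertain, since the treatment of reads with several places is not given in the sources used here.

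Vwf is widely used as an endothelial marker, so its level was set beside those of 23 endothelial genes. Of these, 13 were in the tables and 6 were detected, where 77.7% of all genes were. The median of the 13 was 1.35 CPM, against 3.87 CPM over all genes. The list took between 0.0462% and 0.0514% of counts in each library. Of the defining markers, Tek, Emcn and Robo4 were not analysed here, Cdh5, the VE-cadherin gene, was at 1.78, 2.02 and 1.61 CPM, and Kdr, a VEGF receptor gene, at 7.79, 10.2 and 7.93 CPM. Vwf gave 1272 times the reads of Cdh5 and 266 times those of Kdr (575 and 165 times per length). Against the more abundant genes of the list the ratios were smaller: 6.28 for Aqp1 (1.97 per length), 41.8 for Tie1 (18.4), 78.2 for Plvap (17.9) and 84.7 for Lyve1 (25.03). The highest of the list were the water channel gene Aqp1 at 364 ± 24.6 CPM (SD, n = 3), Tie1 at 54.7 ± 3.73 and Plvap at 29.2 ± 0.600 CPM. Aqp1 is also a red cell gene, and the part of red cells in its level was not tested. In replicates 1, 2 and 3 it was at 339, 388 and 365 CPM, and red cell markers took 4.87%, 0.522% and 0.680% of counts. In replicate 3, where Vwf was highest, 5 of the 13 markers (Tie1, Plvap, Lyve1, Ptprb and Sox18) were highest on plain totals, where 68.7% of all genes were. With TMM scaling 2 of 13 were, against 43.4% of all genes. On plain totals Cdh5 was lowest in that library. The part of endothelial RNA in the level of Vwf was not tested.

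**Figure D5:**
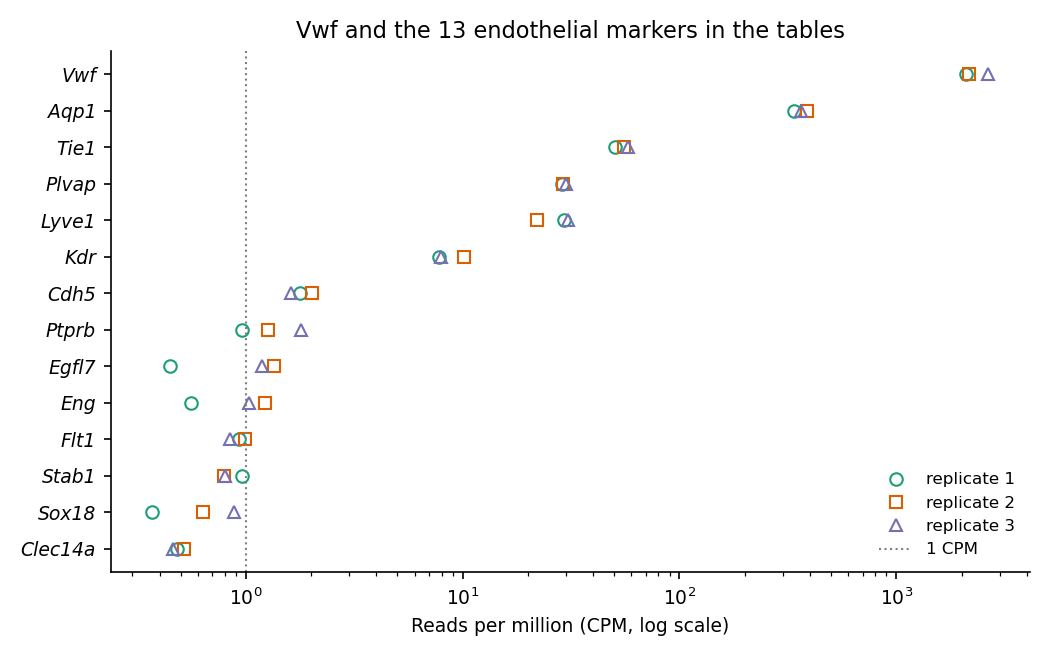
CPM on a log axis of Vwf and the 13 endothelial markers in the tables, 1 point per library; the dotted line is 1 CPM. Vwf lies at 2086 CPM or higher, and 7 of the 13 markers fall below 1 CPM in at least 1 library.

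Among 36 binding and signalling partners of the complex, 35 were in the tables and 33 were detected, where 77.7% of all genes were. The median of the 35 was 71.2 CPM, against 3.87 CPM over all genes. Fcgr2b was not analysed here, and Traf4 was at 0.816, 0.675 and 0.919 CPM. The integrin chain gene Itgb3 led at 1545 ± 141 CPM (SD, n = 3), followed by Flna, whose product filamin A ties the tail of GPIb alpha to actin, at 1068, 958 and 1289 CPM (1105 ± 169), and the Src family kinase gene Lyn at 711 ± 7.99 CPM. Of the 14-3-3 genes, whose products bind the tails of GPIb alpha and GPIb beta, Ywhah was highest at 649 ± 39.9 CPM, and Ywhaz, the zeta form, was at 216 ± 15.1 CPM. Of the protein kinase A genes, whose products phosphorylate GPIb beta, Prkaca was at 52.6 and Prkacb at 15.8 CPM. Of the 35 genes, 16 were above 100 CPM, against 7.95% of all genes.

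The genes listed for shedding and clearance of the receptor, enzymes that act on its sugars among them, had a lower median than the partners. Of 19 genes on this list 14 were in the tables and 13 were detected, where 77.7% of all genes were. The median of the 14 was 11.5 CPM, against 3.87 CPM over all genes. St3gal1, a sialyltransferase of O-linked sugars, stood out at 618, 601 and 679 CPM (633 ± 40.7, SD, n = 3), while St3gal4, which caps N-linked sugars, was at 2.25 CPM. The calpain genes Capns1 and Capn2 followed at 252 ± 22.9 and 148 ± 4.94 CPM. Adam17, the sheddase of GPIb alpha and GPV, was at 6.34, 6.03 and 8.66 CPM, and Adam10 at 49.4 ± 4.15 CPM. Neu1, a sialidase gene, was below 1 CPM in replicate 2. The liver clearance receptor genes Asgr1, Asgr2 and Clec4f were, like Neu3 and C1galt1c1, not analysed here.

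For processing, storage and turnover of von Willebrand factor, 13 of 17 genes were in the tables. Of these 12 were detected, where 77.7% of all genes were, and the median of the 13 was 13.2 CPM. Mmrn1, whose product multimerin is stored with it in alpha granules, was at 578, 599.9 and 599 CPM (593 ± 12.3, SD, n = 3), Thbs1, thrombospondin, at 640.3, 607 and 455 CPM (567 ± 99.0) and Rab27b at 475 ± 8.53 CPM. Thbs1 moved opposite to Vwf, being lowest in replicate 3, but its spread did not pass the edgeR test (adjusted p = 0.799). Furin, the protease that removes the propeptide, was at 13.2 ± 2.62 CPM. Adamts13, the protease that cuts von Willebrand factor in plasma, F8, its factor VIII partner, B4galnt2 and Scara5 were not analysed here. Other ligands of GPIb in the tables were Thbs1, Itgb2 (428 ± 38.3 CPM), Selp, P-selectin, (44.3 ± 2.17 CPM) and Itgam (1.24 CPM), 4 of the 10 listed. All 4 were detected, as were 77.7% of all genes. F2, F7, F11, F12, Kng1 and Kng2 were not analysed here. Itgb2 and Itgam encode the leukocyte integrin Mac-1.

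All 20 of the 22 listed transcription regulators that were in the tables were detected, as were 77.7% of all genes. Their median was 15.8 CPM, against 3.87 CPM over all genes. Nfe2 was at 457 ± 26.8, Tal1 at 253 ± 11.1 and Gata1, the GATA factor of megakaryocytes and red cells, at 149, 199.6 and 145 CPM (SD, n = 3). Of the Ets family genes on the list, Elf1 was highest at 113 ± 5.82 CPM. Ets1 was at 65.5 ± 29.8, Fli1 at 12.3 ± 0.531, Etv6 at 5.29 ± 0.920 and Gabpa at 3.96 ± 0.887 CPM. Ets1 was highest in replicate 3, at 47.8, 48.7 and 99.9 CPM, without passing the edgeR test of spread (adjusted p = 0.265). The B cell markers Cd79a (12.01, 12.8 and 21.9 CPM), Cd79b (6.19, 9.17 and 17.0 CPM), Ms4a1 (7.12, 5.95 and 11.3 CPM) and Cd74 (113, 101 and 167 CPM) were highest in the same library, also with TMM scaling, and their part in the value of Ets1 was not tested. Erg and Myb were not analysed here. No gene of these 5 lists, of the other adhesion receptors, or of the platelet, endothelial or leukocyte markers was called by that test.

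Markers of other blood cells were looked up as shares of RNA counts, which are not shares of cells. Red cell markers took 4.87%, 0.522% and 0.680% of counts in replicates 1, 2 and 3, and 6 of the 9 in the tables were called by the edgeR test (adjusted p under 0.05): Hba-a1, Hba-a2, Hbb-b1, Hbb-bs, Alas2 and Slc4a1. Leaving them out of the totals moved the mean of each member by less than its SD, and the lowest library of Gp1bb, Gp9 and Vwf was then replicate 2, not 1. Leukocyte markers took 0.146%, 0.168% and 0.163%, a share carried by Lyz2. Of the other 13, 11 were highest in replicate 3 on plain totals, against 68.7% of all genes. With TMM scaling 9 of 13 were, against 43.4% of all genes. The list was led by Lyz2 at 1387 ± 117, Cd74 at 127 ± 35.4 and Cd79a at 15.6 ± 5.47 CPM (SD, n = 3), and 11 of the 14 in the tables were detected.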

How the data were processed

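Platelet RNA from 3 wild-type samples was sequenced. The labels' protocols name a Norgen kit for the RNA and the Illumina TruSeq RNA kit, version 2, for the libraries. The authors deposited raw counts of reads per Entrez gene, with a gene length, in 1 table per library. The submitters' processing notes name CASAVA 1.8.2, Subread, featureCounts, edgeR 3.11.5 and mm10; annotation, strand setting, handling of multi-mapped reads and the reason for 9822 genes: not given in the sources used here.

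Symbols came from the RefSeq table for GRCm38.p6 (9636 genes). CPM used plain totals, and RPKM the deposited length. The test of spread used edgeR 4.0.16 (limma 3.58.1, R 4.3.3): TMM factors from all genes, an intercept, a minimum mean of 1 CPM, and each quasi-likelihood dispersion set against its trend (upper tail of F), with Benjamini-Hochberg adjustment and a threshold of 0.05. It was tested on simulated data in which each gene had exactly the dispersion of the trend, unlike the real counts. With 200 genes changed in 1 library all 50 changed 8-fold and all 50 changed 16-fold were found, and 0 calls were false. DESeq2 1.42.0, Python 3.11.15, pandas 2.3.3, SciPy 1.17.1 and matplotlib 3.10.9 did the rest. Transcript lengths came from GENCODE M21. The CPM of 3 counts, the upper limit a count of 0 allows, was 0.111, 0.119 and 0.115.

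The members, the 11 gene lists and the tests were chosen with earlier results of these data known. Named genes were the members, the 2 genes most like each, their neighbours, the other adhesion chains and the 3 highest of each list with any that the spread test called; further list genes were named for their role after their values were seen. Some list genes are not reported here.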

Additional observations from a re-analysis of the deposited data

How the results depend on the processing

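Levels of the members stayed within 1 SD of the main value with TMM scaling, DESeq2 size factors, totals without red cell markers and without any 1 replicate. With the 10 highest genes left out of the totals, every CPM rises by construction: to 1079 for Gp1ba, 1456 for Gp1bb, 1558 for Gp5, 3883 for Gp9 and 4046 for Vwf. Log2 ratios per length moved with the length used. With no length scaling they were 1.33 (Gp9 to Gp5), -1.47 (Gp1bb to Vwf), 1.90 (Vwf to Gp1ba), 1.85 (Gp9 to Gp1ba), 0.43 (Gp1bb to Gp1ba) and 0.53 (Gp5 to Gp1ba). With 200 bases taken off each length they were 3.03 (Gp9 to Gp5), 0.72 (Gp1bb to Vwf), 0.14 (Vwf to Gp1ba) and 3.90 (Gp9 to Gp1ba). Over coding sequences they were 3.01 (Gp9 to Gp5), -1.31 (Gp5 to Gp1bb), 2.25 (Gp1bb to Vwf), -0.035 (Vwf to Gp1ba), 3.90 (Gp9 to Gp1ba) and 2.21 (Gp1bb to Gp1ba). With the spliced Gp1bb length, a choice made after seeing the data, they were -0.92 (Gp5 to Gp1bb), 1.55 (Gp1bb to Vwf) and 1.76 (Gp1bb to Gp1ba). Without 1 replicate each, Gp5 to Gp1bb ran from -0.022 to 0.095, its sign changing without replicate 1 or 3. The 22 calls of spread became 11 on plain totals, 0 with a robust prior (422 at an unadjusted p under 0.05), 2 to 29 without 1 replicate (2 without replicate 1) and 49 by DESeq2's dispersion outliers, and no member was called under any of these settings; the cause was not tested. At 5 CPM, 4000 of 9822 genes were detected in place of 7633, and all 5 members. No paired analysis was possible because there is 1 group. At this depth counting error is small, and the number of libraries limits the precision.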
